A study of Mus musculus with 6 samples.

Results

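Macrophages crawl, spread and engulf by building and dismantling actin filaments, and 54 mouse genes of that machinery were followed here in bone-marrow-derived macrophages (BMDMs) exposed to excess salt. The genes were taken by symbol, from actin and its monomer-binding proteins through the Arp2/3 complex, the small GTPases and their effectors to the focal adhesion proteins, the membrane linkers and vimentin, by their known role. All 54 were found among 57010 annotated genes, and all 54 reached the minimum of 10 reads over the libraries that left 15903 genes in the test.

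Bulk polyA RNA was sequenced from BMDMs of 3 Cx3cr1GFP mice on a C57BL/6J background, grown in M-CSF, the growth factor that drives bone marrow progenitors into macrophages. From each mouse 1 culture was left unstimulated (control, n = 3) and 1 received 62 mM excess NaCl for 24 h (NaCl, n = 3), so that mouse 1, 2 and 3 each gave a pair of libraries. Both groups share the Cx3cr1GFP allele, the M-CSF culture and the removal of floating cells, so that the RNA came from adherent cells detached with EDTA. Neither an osmolarity control nor a second dose was among the libraries analysed here.

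Cells push the plasma membrane forward with branched actin networks, which the Arp2/3 complex nucleates from the sides of existing filaments when proteins of the WASP and WAVE families switch it on. Small GTPases such as Rac and Cdc42 act above them, and formins, capping and severing proteins set how long filaments grow. Talin, vinculin, paxillin and the kinases FAK and PYK2 couple filaments to integrins, and macrophages assemble the same parts into podosomes and phagocytic cups.

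The libraries held 4088065 to 20123570 reads in genes, with the NaCl library of mouse 3 the smallest and the control library of the same mouse the largest. The labelled cell type was checked against its markers. Levels are given as CPM, read counts scaled to the size of each library. The summed CPM of 8 macrophage markers lay between 14900 and 16300 in control and between 23700 and 31300 in NaCl. Most of that difference was Lyz2, with a mean of 9820 CPM in control and 19100 in NaCl. Cd14 and Csf1r were also higher in every NaCl library, Mertk was lower in every NaCl library (mean 93.4 CPM in control and 47.3 in NaCl), and Adgre1, Itgam, Cd68 and Fcgr1 overlapped between the groups. Summed markers of neutrophils (8 genes) ranged from 205 to 414 CPM in control and from 223 to 337 in NaCl, those of monocytes (5 genes) from 102 to 224 and from 94 to 287, and those of stromal cells (the 3 of 6 with enough reads) from 0.906 to 4.34 and from 0.447 to 3.59. The smooth muscle markers Acta2 and Tagln summed to 1.54 to 3.43 CPM in control and 1.34 to 4.07 in NaCl. The count minimum was not reached by Myh11, Cnn1 and Actg2 of that list, by Col3a1, Dcn and Lum of the stromal list or by any of the 5 erythroid markers. In bulk RNA, fewer cells of a kind and less RNA per cell cannot be told apart.

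No member passed the threshold, an adjusted p under 0.05 over all 15903 genes, when the 3 NaCl libraries were tested against the 3 control libraries by quasi-likelihood in edgeR. The same test called 0.478% of all genes higher and 0.176% lower. At an unadjusted p under 0.05 there were 8 members, 14.8% of the list beside 12.6% of all genes. DESeq2 on the same groups called 3 members, Ptk2 and Fmnl1 higher and Vcl lower, where it called 1.91% of the genes it tested higher and 1.21% lower, and limma-voom called 0 members.

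Once the mouse was entered as a block, so that each NaCl library was compared with the control library of its own mouse, edgeR called 8 of the 54. Ptk2, Rac2, Marcksl1 and Fmnl1 rose and Marcks, Vcl, Lsp1 and Arpc5 fell, which is 7.41% of the members in each direction where 4.6% of all genes rose and 4.3% fell. Without the block, the log2 fold changes (NaCl over control throughout) of the 54 ran from -0.53 to 0.83 with a median of -0.11, beside -0.01 for all genes, and 36 of the 54 were negative (66.7%, beside 50.8% of all genes). Most were small, since 51 lay within 0.5 of zero on the log2 scale, 94.4% of the list beside 76.0% of all genes. With mouse blocked, the whole 95% interval lay within 0.5 of zero for 37 members (68.5%, beside 35.0% of all genes). These shares were not matched for read depth. Most members were well expressed, whereas all genes include some with as few as 10 reads, whose fold changes are noisier. The shares therefore do not show that the members were unusually stable.

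**Figure D1:**
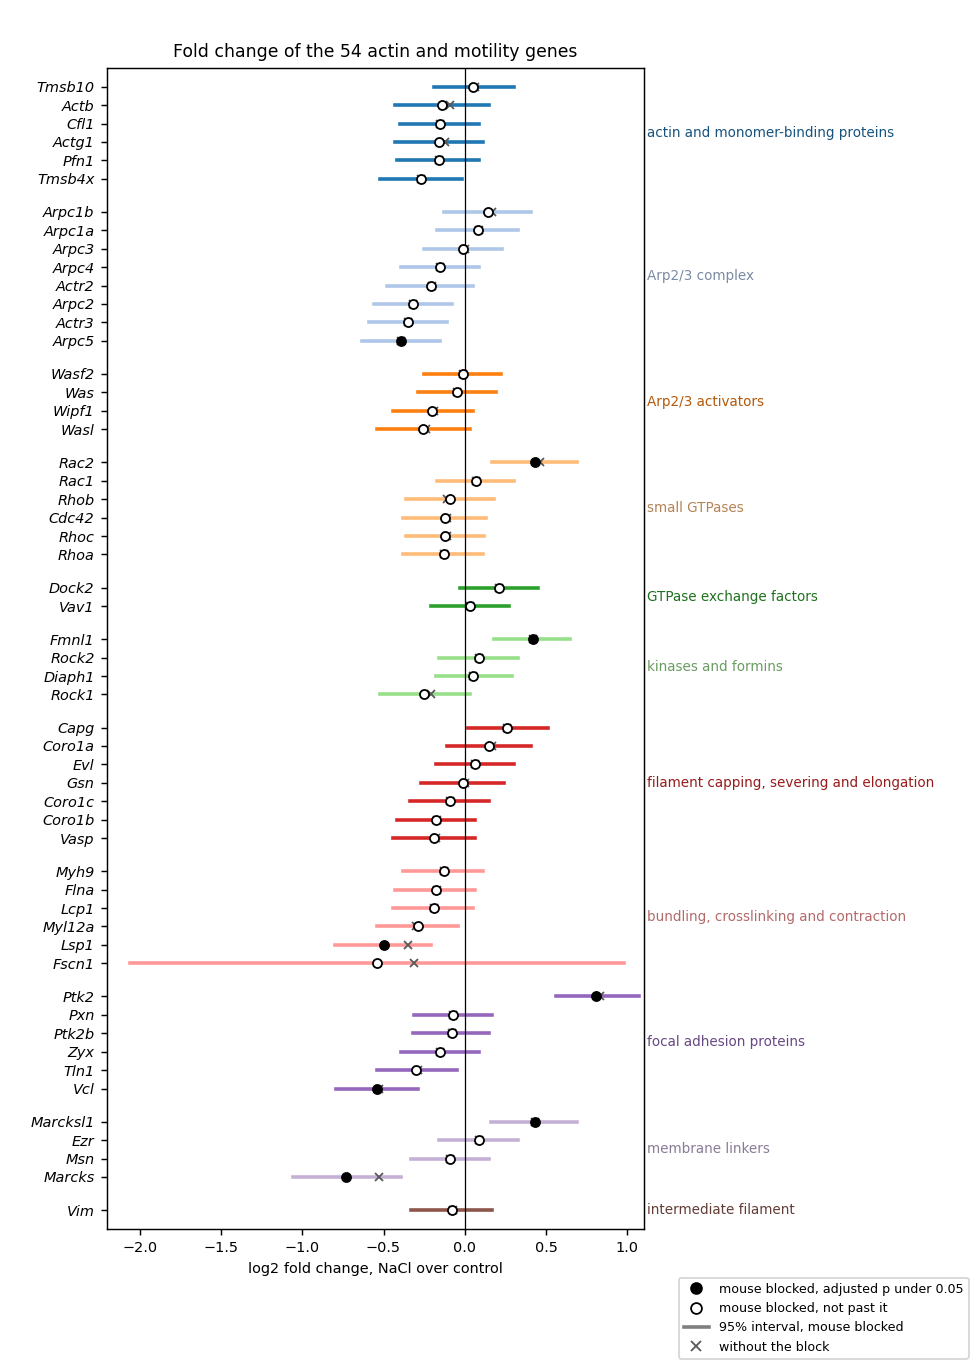
Each row is a gene, grouped by role and ordered by fold change, and the x axis is the log2 fold change of NaCl over control. Circles are edgeR estimates with mouse as a block, with 95% intervals as bars, filled for the 8 genes with an adjusted p under 0.05, and crosses are estimates without the block. Most intervals lie within 0.5 of zero, Ptk2 stands farthest to the right at 0.81 and Fscn1, which had few reads, has the widest bar.

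Compared per kilobase of exon, which allows levels of different genes to be set side by side, the members covered a wide range. Tmsb4x (X chromosome), which encodes thymosin beta 4 and holds actin monomers in reserve, had the highest level at 2910 CPM per kb in control and 2410 in NaCl. Cytoplasmic beta-actin, Actb, followed at 2160 and 2030, then vimentin (Vim) at 651 and 621, the filament-capping protein Capg at 473 and 566 and the Arp2/3 subunit Arpc2 at 470 and 377. At the other end stood Ptk2 at 3.45 CPM per kb in control and 6.15 in NaCl. Fscn1, encoding the bundling protein fascin, was close to absent, with 0 to 9 reads in a library and 29 reads in all, so that its fold change could not be resolved at this depth.

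**Figure D2:**
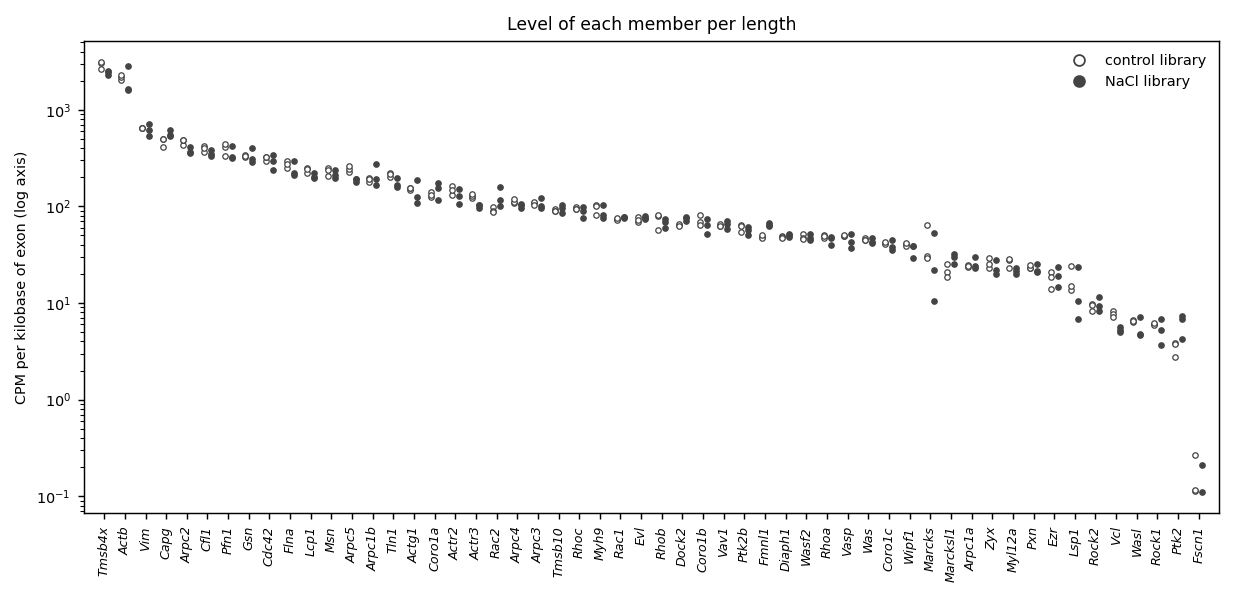
The y axis gives CPM per kilobase of annotated exon on a log axis for each of the 54 genes, in order of mean level. Open points are the 3 control and filled points the 3 NaCl libraries, and the library of Fscn1 at 0 is not drawn. The points of most genes lie close together, with the widest spread for Marcks, Lsp1 and Fscn1.

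Actin itself behaved differently in the 3 mice. Actb (chromosome 5) stood at 5400, 5840 and 6130 CPM in the control libraries of mouse 1, 2 and 3 and at 4320, 7620 and 4380 in the NaCl libraries. NaCl was the lower library in mouse 1 and 3 and the higher in mouse 2, and the groups overlapped. Its log2 fold change was -0.09 ± 0.22 (SE, n = 3 per group, edgeR adjusted p = 0.909). Actg1, the gamma-actin gene on chromosome 11, had the same direction in each mouse, 396, 411 and 411 CPM in control and 332, 498 and 287 in NaCl, with a log2 fold change of -0.12. With all 3 mice blocked, Actb stood at -0.14 (adjusted p = 0.623) and Actg1 at -0.16 (adjusted p = 0.531). The blocked value of Actb depended on the mouse left out, at -0.04 (adjusted p = 0.962) without mouse 1, -0.39 (adjusted p = 0.00399) without mouse 2 and 0.04 (adjusted p = 0.939) without mouse 3. For Actg1 it was -0.11 (adjusted p = 0.867), -0.37 (adjusted p = 0.00306) and 0.02 (adjusted p = 0.964). Since mouse 2 was the one in which both genes were higher, the fits without it describe the other 2 mice and are no test of the group. About 33.5% of the 75-base stretches of the Actg1 transcripts also occur in other genes or pseudogenes. How reads from such stretches affected its count was not tested.

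Of the monomer-binding proteins, Tmsb4x lay at 3580, 4140 and 4250 CPM in control and at 3420, 3150 and 3350 in NaCl. Every NaCl library was below every control library, with a log2 fold change of -0.27 ± 0.13 (SE, adjusted p = 0.437, and 0.188 with the block). Profilin 1 (Pfn1), which loads monomers onto growing ends, had a log2 fold change of -0.16 and cofilin 1 (Cfl1), which severs old filaments, -0.15. The related thymosin gene Tmsb10 showed the largest positive value of these 6 genes, at 119, 114 and 115 CPM in control and 122, 131 and 109 in NaCl, a log2 fold change of 0.06. About 19.2% of Tmsb10 and 12.9% of Cfl1 sequence is shared with other annotated genes.

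**Figure D3:**
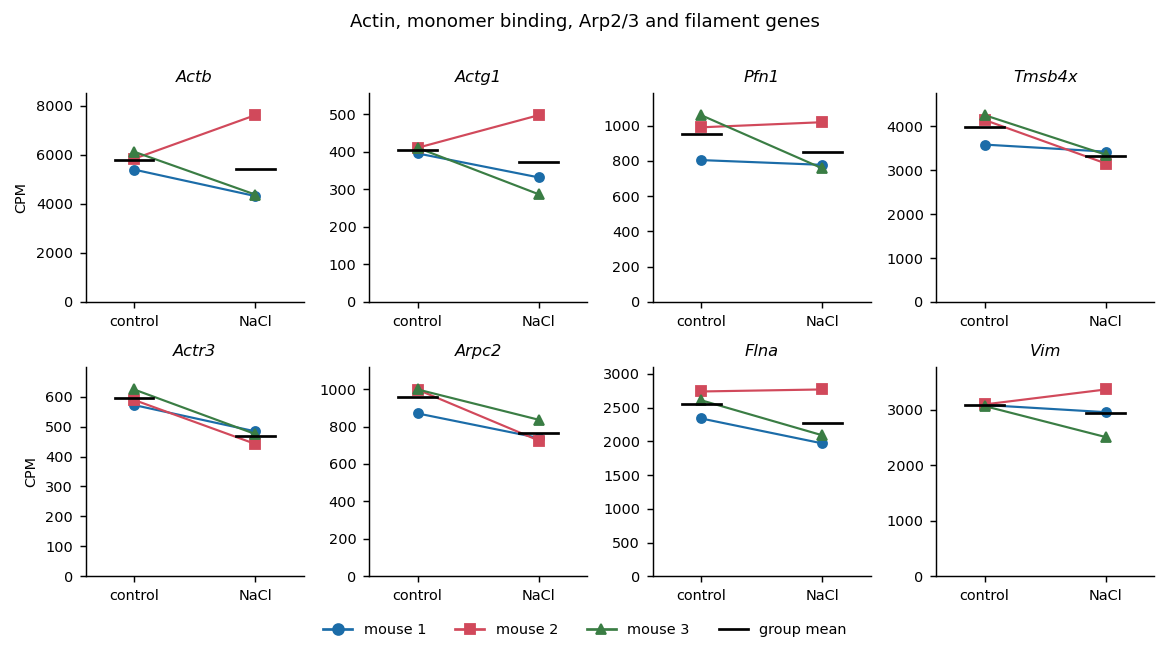
CPM of 8 genes in the control and NaCl libraries, with a line joining the libraries of each mouse and black bars at the group means, each y axis starting at 0. Actb, Actg1 and Vim go up in mouse 2 and down in mouse 1 and 3, while Tmsb4x, Actr3 and Arpc2 go down in all 3 mice.

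The subunits of the Arp2/3 complex did not share a direction. Arpc5 (chromosome 1), the smallest subunit, was counted at 512, 555 and 600 CPM in control and at 433, 434 and 404 in NaCl, with no overlap. With mouse blocked it fell by 0.39 on the log2 scale (95% interval -0.63 to -0.15, adjusted p = 0.0366), and it missed the threshold without the block (-0.39, adjusted p = 0.223). Arpc5 missed it again with mouse 1 left out (-0.45, adjusted p = 0.203) and with mouse 3 left out (-0.29, adjusted p = 0.319).

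The actin-related proteins that seed the new branch are Actr2 (ARP2) and Actr3 (ARP3). Actr3 lay at 572, 589 and 624 CPM in control and 484, 442 and 475 in NaCl, again without overlap, and at a log2 fold change of -0.35 it fell short of the threshold with the block (adjusted p = 0.0586). Arpc2, one of the 2 subunits that clamp the mother filament together with Arpc4, stood at 870, 997 and 998 CPM in control and 739, 725 and 836 in NaCl (log2 fold change -0.32, blocked adjusted p = 0.0939). Arpc4 (-0.15) also had all NaCl libraries below all control libraries, whereas Actr2 (-0.20) and Arpc3 (0.00) overlapped. The Arpc1 paralogs took positive values, 0.09 for Arpc1a and 0.17 for Arpc1b. Arpc1b, the isoform prominent in blood cells, was at 909, 994 and 972 CPM in control and 988, 1410 and 842 in NaCl, so that its mean rested on the NaCl library of mouse 2. In all, 4 of the 8 subunits had NaCl libraries entirely below control and 0 entirely above, where 10.1% of all genes lay entirely below and 8.92% entirely above. A part of the Actr3 (17.7%) and Arpc1b (19.3%) sequence is shared with other annotated genes.

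Activators of the complex varied little. Wasf2, encoding the WAVE2 protein of lamellipodia, lay at 327, 296 and 285 CPM in control and 326, 282 and 293 in NaCl (log2 fold change -0.01). Was, the WASP of blood cells that works in podosomes, had -0.05, and Wipf1, whose product WIP binds and stabilises WASP, -0.19 with all NaCl libraries the lower. Wasl (N-WASP) had the most negative value of the 4, at 39.2, 40.8 and 39.9 CPM in control and 28.7, 29.6 and 44.3 in NaCl, a log2 fold change of -0.24 with mouse 3 opposed to the other 2 mice.

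Among the small GTPases, Rac2 stood apart from its close relative Rac1. Rac2 (chromosome 15), the Rac of blood cells that also serves the NADPH oxidase, was at 306, 277 and 270 CPM in control and 365, 490 and 314 in NaCl. The groups did not overlap and the log2 fold change was 0.46 ± 0.17 (SE, adjusted p = 0.304). It rose 1.35-fold with the block (log2 0.43, 95% interval 0.17 to 0.69, adjusted p = 0.0295), the largest step being in mouse 2. Without mouse 2 the value was 0.25 and no longer past the threshold (adjusted p = 0.0976), nor was it without mouse 1 (0.53, adjusted p = 0.0987). Rac1, expressed in most cells, had a mean of 331 ± 5.70 CPM in control and 347 ± 4.32 in NaCl (SD, n = 3), a log2 fold change of 0.07 with an interval of -0.17 to 0.30 in the blocked fit. About 51.4% of the annotated Rac1 exon sequence lies in exons of Daglb on the opposite strand. The libraries do not record strand, so a read within that overlap cannot be assigned to either gene. Daglb itself rose with the block (log2 0.51, edgeR adjusted p = 0.00598), and its bearing on the Rac1 value was not tested.

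Cdc42, which directs filopodia, had a log2 fold change of -0.11, and 3 related genes lay together at -0.13 (Rhoa), -0.11 (Rhob) and -0.11 (Rhoc). Rhoa, which drives contraction, was the lowest of the group with 349, 383 and 370 CPM in control and 352, 296 and 359 in NaCl. Of the exchange factors that load these GTPases, Dock2, which activates Rac in blood cells, had NaCl libraries (800, 883 and 871 CPM) all above control (741, 755 and 712), with a log2 fold change of 0.21 that did not pass (blocked adjusted p = 0.310). Vav1, another exchange factor of blood cells, was at 0.03.

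The formin Fmnl1, which elongates unbranched filaments and is known from macrophage podosomes, was separated well between the groups. It was at 233, 230 and 246 CPM in control and at 305, 328 and 315 in NaCl, with every mouse higher. The log2 fold change was 0.42 in either design, short of the threshold without the block (adjusted p = 0.165) and past it with the block (95% interval 0.18 to 0.65, adjusted p = 0.0194), and DESeq2 called it without a block (adjusted p = 0.0335). It missed the threshold without mouse 1 (0.44, adjusted p = 0.195) and without mouse 3 (0.46, adjusted p = 0.0548). The other formin of the list, Diaph1, had 0.05. The kinases encoded by Rock1 and Rock2, which raise myosin contractility, gave 0.09 for Rock2 and -0.21 for Rock1, the latter at 111, 106 and 113 CPM in control and 95.8, 66.5 and 125 in NaCl.

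No gene of the capping, severing and elongation group passed in either design. Capg, which caps filament ends in macrophages, stood at 1050, 1270 and 1270 CPM in control and 1370, 1570 and 1350 in NaCl, all NaCl libraries the higher (log2 fold change 0.26 ± 0.14, SE, blocked adjusted p = 0.191). Gsn, the severing protein gelsolin, had 0.00. The coronins, which help turn branched networks over, were at 0.17 (Coro1a), -0.17 (Coro1b) and -0.09 (Coro1c). Of the Ena/VASP elongation factors, Evl had 0.06 and Vasp -0.18, with 128, 130 and 132 CPM of Vasp in control and 135, 98.0 and 111 in NaCl.

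All 6 genes of the bundling, crosslinking and contraction group had negative fold changes, and 1 of them, Lsp1, passed with the block. Lsp1 (chromosome 7), which encodes a filament-binding protein of leukocytes, was counted at 124, 71.1 and 78.1 CPM in control and at 123, 35.3 and 53.7 in NaCl. Both libraries of mouse 1 were the highest and hardly differed from each other, whereas the level in mouse 2 and 3 was lower in NaCl. The log2 fold change was -0.35 ± 0.40 (SE, adjusted p = 0.762) and with the block it fell by 0.50 (95% interval -0.80 to -0.21, adjusted p = 0.0258). That value became -0.77 (adjusted p = 0.00335) without mouse 1 and -0.23 (adjusted p = 0.210) without mouse 2. Lsp1 was not called by DESeq2 with the block (adjusted p = 0.078). The remaining genes were Lcp1 (L-plastin, -0.19), Flna (filamin A, -0.17), Myh9 and Myl12a (non-muscle myosin heavy and regulatory light chains, -0.13 and -0.30) and Fscn1 (-0.31 ± 0.73, SE). Lcp1 had all NaCl libraries below control. Myh9, the least negative, was at 1050, 1340 and 1290 CPM in control and 969, 1350 and 1050 in NaCl.

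The focal adhesion proteins held the largest rise of the 54 genes, that of Ptk2, and a fall in Vcl. Ptk2 (chromosome 15) encodes focal adhesion kinase, FAK, which signals from integrins at sites of attachment. Its level was 32.7, 45.4 and 44.1 CPM in the control libraries of mouse 1, 2 and 3 and 50.6, 86.5 and 80.5 in the NaCl libraries, without overlap and higher in each mouse. The log2 fold change was 0.83 ± 0.21 (SE, adjusted p = 0.143). With the block Ptk2 rose 1.76-fold (log2 0.81, 95% interval 0.56 to 1.07, adjusted p = 6.15e-05), and the rise remained past the threshold with any 1 mouse left out, between 0.76 and 0.91. DESeq2 called it in both designs (adjusted p = 0.0186 without the block). The study displayed Ptk2 among chemotaxis genes on the basis of these same libraries, so this is not independent evidence of its direction. Its relative Ptk2b (PYK2), the family member typical of blood cells, was far more abundant, at 59.9 CPM per kb in control and 56.6 in NaCl, and had a log2 fold change of -0.08 (blocked 95% interval -0.32 to 0.15).

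Vcl (chromosome 14) encodes vinculin, which links talin to actin. It was at 68.4, 62.5 and 58.2 CPM in control and 46.5, 40.9 and 43.1 in NaCl, again without overlap, with a log2 fold change of -0.53 ± 0.13 (SE, adjusted p = 0.124). With the block Vcl fell by 0.54 (95% interval -0.79 to -0.29, adjusted p = 0.00459), DESeq2 called it without the block (adjusted p = 0.0423), and without mouse 1 it was at -0.52 with an adjusted p of 0.0968. About 25.5% of the Vcl exon sequence overlaps Ap3m1 on the other strand, a gene whose own blocked value was -0.20 (adjusted p = 0.336). Tln1, encoding the integrin activator talin 1, had all NaCl libraries below control and a log2 fold change of -0.29 (blocked adjusted p = 0.128). Zyx (zyxin) had -0.15 and Pxn (paxillin) -0.07.

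Some actin and adhesion genes carry a CArG box in their promoter, the site bound by serum response factor, whose coactivators are themselves held by unpolymerised actin. RefSeq promoters (GRCm38.p6, 250 bases before to 50 after the start) were matched for 43 of the 54 genes, not among them Actb and 4 of the 8 called with the block (Ptk2, Rac2, Lsp1 and Marcks), and a CArG box on either strand was present in 3 of them (6.98%, beside 1.81% of 27025 genes). These were Actg1, Arpc4 and Vcl, shown here because Vcl was the one of the 3 called with the block. The 250 bases before each start are printed 5′ to 3′ on the gene's strand, with the box in capitals.
Actg1, chr11:120348496-120348745, minus strand: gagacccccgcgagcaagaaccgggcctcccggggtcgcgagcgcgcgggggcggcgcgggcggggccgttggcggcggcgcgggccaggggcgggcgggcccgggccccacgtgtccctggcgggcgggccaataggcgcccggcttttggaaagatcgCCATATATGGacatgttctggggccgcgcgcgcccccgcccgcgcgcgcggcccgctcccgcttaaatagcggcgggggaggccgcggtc
Arpc4, chr6:113377863-113378112, plus strand: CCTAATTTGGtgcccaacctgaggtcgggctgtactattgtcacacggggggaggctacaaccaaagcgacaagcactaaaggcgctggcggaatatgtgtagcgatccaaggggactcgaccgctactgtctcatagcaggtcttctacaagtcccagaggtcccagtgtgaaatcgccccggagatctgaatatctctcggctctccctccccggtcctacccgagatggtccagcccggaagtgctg
Vcl, chr14:20929148-20929397, plus strand: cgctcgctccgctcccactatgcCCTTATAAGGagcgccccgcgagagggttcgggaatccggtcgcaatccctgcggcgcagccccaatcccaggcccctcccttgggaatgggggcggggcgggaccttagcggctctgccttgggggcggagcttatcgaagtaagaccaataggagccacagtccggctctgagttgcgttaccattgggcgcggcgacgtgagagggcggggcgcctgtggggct
The box began 90 bases before the start in Actg1, 250 in Arpc4 and 227 in Vcl. Their log2 fold changes were -0.12, -0.15 and -0.53. The TonE motif, the element read by the salt-responsive factor NFAT5, was matched in 1 of the 43 promoters, that of Pfn1 (2.33%, beside 5.74% of all genes). A match of letters is a description of these windows only.

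The membrane linkers moved in both directions. Marcks and Marcksl1 encode related proteins that tie actin to the plasma membrane and are released from it by protein kinase C. Marcks (chromosome 10) was at 259, 124 and 118 CPM in control and at 215, 42.6 and 88.4 in NaCl, so both libraries of mouse 1 stood above the other 4, and NaCl was the lower library in each mouse. The log2 fold change was -0.53 ± 0.50 (SE, adjusted p = 0.715), and with the block Marcks fell by 0.73 (95% interval -1.06 to -0.39, adjusted p = 0.00415). The edgeR call held with any 1 mouse left out, while its size ran from -0.33 (adjusted p = 0.0203) without mouse 2 to -0.97 without mouse 1. DESeq2 with the same block did not call Marcks (adjusted p = 0.317).

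Marcksl1 (chromosome 4) lay at 34.0, 40.9 and 29.7 CPM in control and 40.6, 52.2 and 47.7 in NaCl. Each mouse was higher in NaCl, while the groups overlapped through the control library of mouse 2 and the NaCl library of mouse 1. The log2 fold change was 0.43 ± 0.16 (SE, adjusted p = 0.323), and with the block Marcksl1 rose 1.34-fold (95% interval 0.16 to 0.69 on the log2 scale, adjusted p = 0.0361), a call that was lost without mouse 1 (0.52, adjusted p = 0.0884) and without mouse 3 (0.31, adjusted p = 0.256). Marcksl1 was not called by DESeq2 with the block (adjusted p = 0.108). Of the proteins that link filaments to membrane receptors, Ezr (ezrin) had 0.09 and Msn (moesin) -0.09. Vim, the intermediate filament of mesenchymal cells and leukocytes, was at 3090, 3100 and 3070 CPM in control and at 2960, 3370 and 2510 in NaCl (-0.07).

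**Figure D4:**
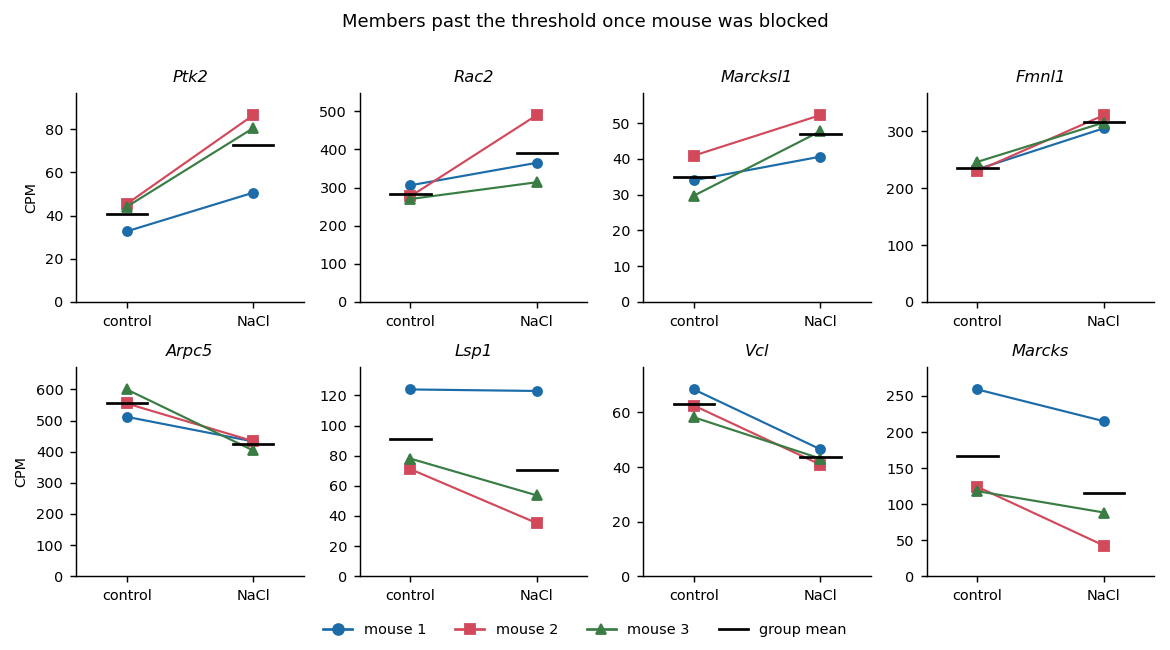
CPM in the control and NaCl libraries of the 8 genes past an adjusted p of 0.05 with mouse as a block, with a line per mouse, black bars at the group means and each y axis starting at 0. The lines of a gene slope the same way, apart from the flat line of mouse 1 in Lsp1, and mouse 1 lies well above the others in Lsp1 and Marcks.

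Counted over the list, 6 members had NaCl libraries entirely above control (Rac1, Rac2, Dock2, Fmnl1, Capg and Ptk2), 11.1% where 8.92% of all genes did, and 9 entirely below (Tmsb4x, Actr3, Arpc2, Arpc4, Arpc5, Wipf1, Lcp1, Vcl and Tln1), 16.7% where 10.1% of all genes did. NaCl was the lower library in all 3 mice for 20 members (37.0%, beside 23.4% of all genes) and the higher in all 3 for 8 (14.8%, beside 20.1%).

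The mice differed in how these genes moved. The median within-mouse log2 ratio of the 54 was -0.05 in mouse 1, -0.04 in mouse 2 and -0.19 in mouse 3. Over all genes the medians were -0.01, 0 and -0.04. The interquartile range of the 54 was 0.17, 0.54 and 0.36, and that of all genes was not computed. The pair of mouse 3 sets the smallest library against the largest, and the part of depth in its values was not tested. There were 10 members higher in NaCl in mouse 2 alone (Actb, Actg1, Pfn1, Arpc3, Rhob, Coro1c, Gsn, Flna, Myh9 and Vim), counting any positive ratio. Some of these barely differed in mouse 2, with log2 ratios of 0.00 (Myh9), 0.02 (Flna) and 0.04 (Pfn1). The share of all genes with this pattern was not counted, so it is not shown to be particular to the members. With mouse 2 left out of the blocked test, 3 members were called higher (5.56%, beside 5.11% of all genes in that fit) and 8 lower (14.8%, beside 4.46%), Actb, Actg1, Actr3, Rhob and Tln1 being added and Rac2 and Lsp1 lost. That mouse was singled out after its values were seen. In the blocked edgeR test Ptk2 and Marcks were past the threshold whichever mouse was left out, though DESeq2 with the block did not call Marcks.

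A further 7 members (Was, Wasf2, Rhoc, Coro1b, Lsp1, Zyx and Marcks) had both libraries of mouse 1 above the other 4, 13.0% where 13.8% of all genes did. The monocyte marker Ccr2 had the same order, at 211 and 258 CPM in mouse 1 and between 38.7 and 99.2 elsewhere, and its part in these values was not tested.

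**Figure D5:**
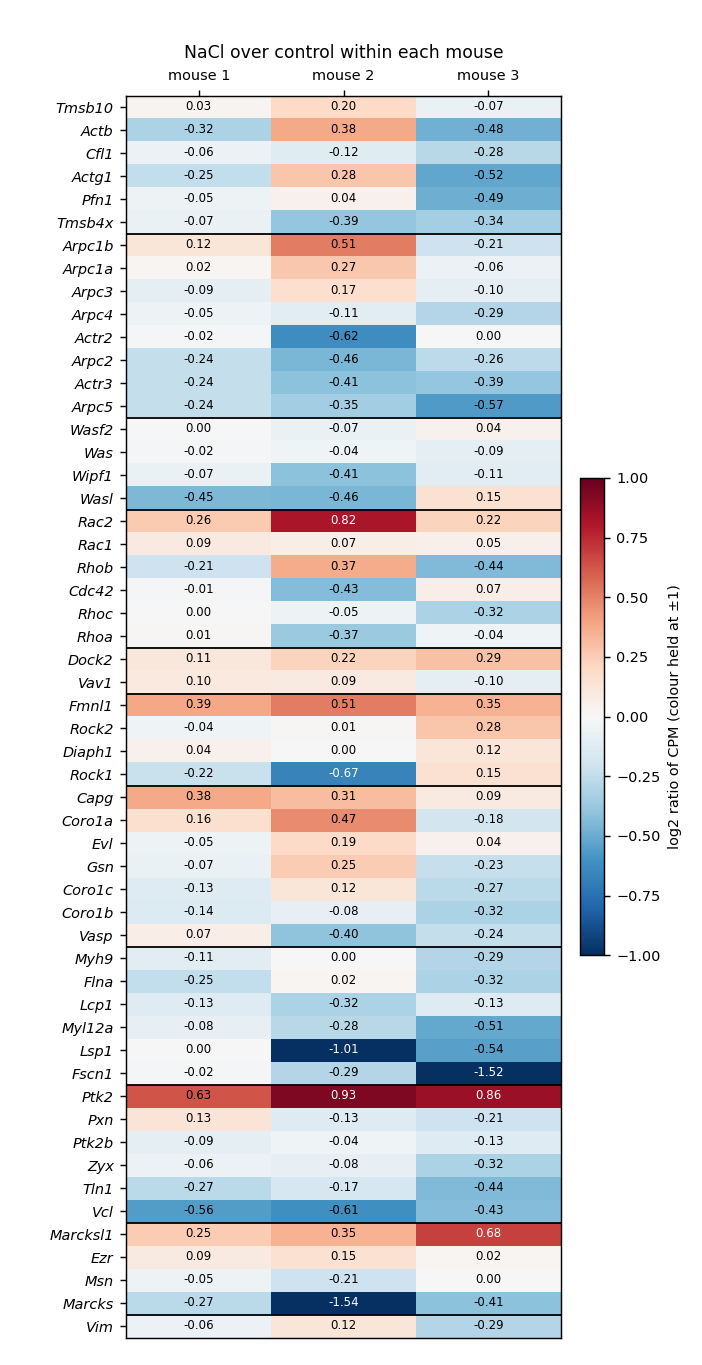
Each row is a gene, grouped by role with lines between groups, and each column a mouse. The cells give the log2 ratio of NaCl over control CPM within the mouse, from blue for lower to red for higher, with colour held at ±1. Ptk2, Fmnl1 and Rac2 are red and Vcl, Arpc5 and Actr3 blue in all columns, while Actb, Actg1 and Rhob are red in mouse 2 alone.

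Beyond the 54, 152 of 159 genes of a wider list of the same pathway had enough reads for the test, and the median of their log2 fold changes was -0.08. Without the block 2 of them rose and 0 fell, where 0.478% of all genes rose and 0.176% fell. An unadjusted p under 0.05 was found for 25 (16.4%, beside 12.6% of all genes), and DESeq2 called 5 higher and 2 lower. With the block 8 rose (5.26%, close to the 4.6% of all genes) and 13 fell (8.55%, beside 4.3%). Racgap1, a GTPase-activating protein needed for cytokinesis, was at 96.0, 86.2 and 83.8 CPM in control and 134, 166 and 160 in NaCl (log2 fold change 0.79, adjusted p = 0.0402). Nf2, which encodes merlin, a relative of the ezrin family, was at 99.3, 90.9 and 91.1 CPM and 140, 164 and 147 (0.68, adjusted p = 0.0472). Both rose without overlap between the groups.

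With mouse blocked, the Rac exchange factors Dock5 (log2 0.83) and Arhgef6 (0.75) and the adapter Pdlim7 (0.73) rose as well. Nckap1, a subunit of the WAVE complex, fell by 1.21 from a low level of 7.21 to 9.21 CPM in control. Its paralog Nckap1l was far more abundant, with a mean of 1210 CPM in control and 1300 in NaCl. The log2 fold change of Nckap1l was 0.10 (blocked edgeR adjusted p = 0.703). The blocked test also called lower the integrin-linked tensin Tns1 (-0.71), the GTPase Rhoh (-0.69), the adhesion protein Parvg (-0.52), the actin-binding protein Cotl1 (-0.47) and Gmfb, which prunes Arp2/3 branches (-0.46). Tns1 was highest in both groups in mouse 1, at 39.5 CPM in control and 26.1 in NaCl.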

How the data were processed

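Libraries of unstranded polyA RNA were read as 75-base single ends. The authors trimmed the reads (fastp 0.20.0), aligned them (STAR 2.7.10b, mm10) and deposited raw read counts per gene, together with a normalised signal, the counts divided by DESeq2 1.40.2 size factors (0.434 to 2.08), which served here for gene symbols only. The named annotation release belongs to another build, so genes are placed by chromosome. Members and gene lists were chosen with earlier results of these data known. Raw counts of genes with at least 10 reads in total were tested with edgeR 4.0.16 (R 4.3.3; quasi-likelihood, TMM, Benjamini-Hochberg). CPM used TMM library sizes, and log2 ratios a prior count of 2. Lengths and shared sequence came from GENCODE M21. The tests were first run on simulated data.

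The labels give each library's mouse, so the blocked value is printed where it changes a call. Over all genes, same-mouse deviations from the group means correlated at 0.43, 0.15 and 0.22 in mouse 1, 2 and 3. Pairs of different mice gave -0.35 to 0.12, the highest of them close to the value of mouse 2. Alternatives were DESeq2 1.42.0, limma-voom 3.58.1, other scalings and count minimums, thinning to 4088065 reads and leaving out libraries or mice. Library values are given for members past the threshold in either design, the 5 highest per length, the extremes of each role of 4 or more genes and Ptk2. Of the wider list, up to 12 called genes are named by blocked fold change, of which 1 is not reported here. Library values of Actg1, Actr3, Dock2 and Ccr2 and the means of Rac1 and Nckap1l were added after the data were seen. The p-values without the block treat the 6 libraries as independent. Those with the block rest on the spread left after mouse and group, moderated across genes, and do not measure the spread between 3 mice alone. For Marcks the within-mouse log2 ratios were -0.27, -1.54 and -0.41, with a blocked SE of 0.16.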

Additional observations from a re-analysis of the deposited data

How the results depend on the processing

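The members higher and lower numbered 4 and 4 with the replicate block, 2 and 1 in DESeq2, 3 and 2 in DESeq2 with the block, 1 and 1 at a minimum total of 1 (Ptk2 and Marcks), and 3 and 5 when libraries were thinned with the block. They were 1 and 2, 3 and 8, and 2 and 3 with the block and mouse 1, 2 or 3 left out, and leaving out single libraries without the block gave 0 to 1 higher. The wider list went from 2 higher and 0 lower to 8 and 13 with the block, 5 and 2 in DESeq2, 7 and 9 in DESeq2 with the block, 6 and 2 at a minimum total of 1, 1 higher when thinned, and 6 and 9 when thinned with the block. It was 6 and 4, 11 and 18, and 6 and 7 with the block and mouse 1, 2 or 3 left out, where its median moved from -0.08 to -0.06, -0.06 and -0.05. Single libraries left out gave 0 to 3 higher, 0 to 1 lower and a median of -0.06 to -0.03. Scaling by median ratios or by total count, edgeR's expression filter and limma-voom called 0 members.

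Of 1025 values of single members over the 19 alternatives, 948 kept their direction and side of the threshold, 46 passed it and 31, of 16 members and all within 0.2 of zero, changed sign. With single libraries left out, log2 fold changes that changed sign ranged over -0.41 to 0.06 (Actb), -0.38 to 0.03 (Actg1), -0.03 to 0.16 (Arpc1a), -0.06 to 0.33 (Arpc1b), -0.07 to 0.05 (Wasf2), -0.23 to 0.02 (Cdc42), -0.02 to 0.10 (Vav1), -0.44 to 0.01 (Rock1), -0.04 to 0.21 (Rock2), -1.10 to 0.17 (Fscn1), -0.09 to 0.25 (Ezr), -0.17 to 0.04 (Vim). Other changes of sign were 0.01 (Pxn) thinned, and 0.01 (Wasf2), 0.01 (Pxn) thinned with the block, and -0.01 (Tmsb10), -0.01 (Arpc1a), -0.03 (Arpc1b), 0.03 (Wasf2), 0.04 (Cdc42) with the block and mouse 2 left out, and 0.04 (Actb), 0.02 (Actg1), 0.01 (Pfn1), 0.09 (Rhob), 0.01 (Pxn), 0.04 (Vim) with the block and mouse 3 left out. The causes were not tested. Depth limited Fscn1, which had 29 reads in all and was not tested under the expression filter.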
